A study of Mus musculus with 188 samples.

Results

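The late-replicating domains of mouse chromosome 14 were examined in single S-phase cells. All 50 kb bins of the chromosome that carried a replication state were taken, which gave 2244 of the 49588 bins with a state in the whole genome. Of these, 2153 bins also had a smoothed copy number score in 50% or more of the cells of each line. They stood against 42959 bins of the other 18 autosomes. The choice of bins used position on the chromosome and no measured timing, but the domains described here were drawn from the mean profile of the same cells.

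The cells were mouse embryonic stem cells (mESCs) of 2 lines, both grown in N2B27 medium with 2i and LIF. H129-2 is a haploid line of strain 129 and gave 75 cells. F121-9 is a diploid hybrid of 129 and Castaneus and gave 63 cells, in each of which the homologs could carry separate states. Nuclei were sorted by DNA content, amplified and sequenced one by one, and a replicated bin was told from an unreplicated bin by its higher copy number. The labels give a plate well for each cell but name no plate and no separate culture. The lines are therefore set side by side without a test, and every SD is the spread over cells. Line, ploidy and strain cannot be told apart, nor can any plate or culture that differed between the lines.

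Mammalian chromosomes are copied as a series of domains, each of which begins and finishes replication within a limited part of S phase. Gene-rich, GC-rich chromatin in the nuclear interior is in general copied early, whereas gene-poor, AT-rich chromatin at the nuclear lamina is copied late. Long late domains hold few replication origins that fire early, and forks entering from the neighboring early domains copy their margins first.

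Scheduled time ranks each bin by its mean smoothed score over the cells among all autosomal bins, and spreads the ranks over 10 h, so a scheduled hour is a rank and not a measured duration. Bins after 5 h were called late. Runs of at least 5 bins on the same side of 5 h formed domains, and late domains of at least 2 Mb were called large. To show what lies at the extremes of this schedule, the central 150 bases are given for the earliest bin of the chromosome and for the latest bin of its late domains of 6.75 Mb and 12.15 Mb. They are from the plus strand of the mm10 reference genome, with CG dinucleotides in capitals. The earliest bin was scheduled at 0.093 h, and the latest bins of these domains at 9.996 h and 9.997 h.
earliest bin, chr14:7824926-7825075: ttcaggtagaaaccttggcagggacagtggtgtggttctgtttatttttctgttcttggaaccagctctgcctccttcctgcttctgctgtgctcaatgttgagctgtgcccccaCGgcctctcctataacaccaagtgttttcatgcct
latest bin of the 6.75 Mb domain, chr14:81374926-81375075: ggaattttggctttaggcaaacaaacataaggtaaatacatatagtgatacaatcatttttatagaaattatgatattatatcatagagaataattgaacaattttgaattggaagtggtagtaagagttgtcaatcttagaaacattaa
latest bin of the 12.15 Mb domain, chr14:110374926-110375075: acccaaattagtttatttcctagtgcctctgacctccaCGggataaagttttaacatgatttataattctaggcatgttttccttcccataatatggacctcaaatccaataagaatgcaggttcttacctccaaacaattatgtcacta

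The windows differed in base composition, as did the whole bins around them. The GC content of the 50 kb bin was 46% for the earliest bin and 36.1% and 37.9% for the latest bins. The earliest bin was replicated in 89.3% of haploid cells and, with both homologs counted, in 95.2% of diploid chromosomes. The bins on either side had the same percentages but were scheduled at 2.26 h and 1.04 h, so its rank rests on its own score. By states it was not the earliest, since the start bin of Dlgap5 was replicated in 100% of haploid cells. The latest bin of the 12.15 Mb domain was replicated in 1.33% of haploid cells and 3.17% of diploid chromosomes. Across the 2153 bins, GC content and scheduled time had a Spearman correlation of -0.814, and across the 42959 bins of the other autosomes it was -0.81. Neighboring bins share sequence and domains, so these correlations are descriptive.

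Chromosome 14 divided into 22 early and 19 late domains. The early domains covered 51.6 Mb, with a median length of 1.5 Mb and a longest domain of 9.45 Mb at chr14:59050001-68500000. The late domains covered 59.75 Mb, with a median of 1.55 Mb. The chromosome was later than most autosomes, since 52.7% of its bins were late, rank 6 of the 19 autosomes, and its mean scheduled time of 5.33 h was the second latest. The other 18 autosomes had late shares from 35.3% on chromosome 11 to 60.8% on chromosome 3. The first 7.7 Mb of the chromosome, 3.5 Mb from chr14:41200001-44700000 and 1.15 Mb from chr14:52700001-53850000 had too few usable bins and were left out, and a domain was never drawn across them.

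**Figure D1:**
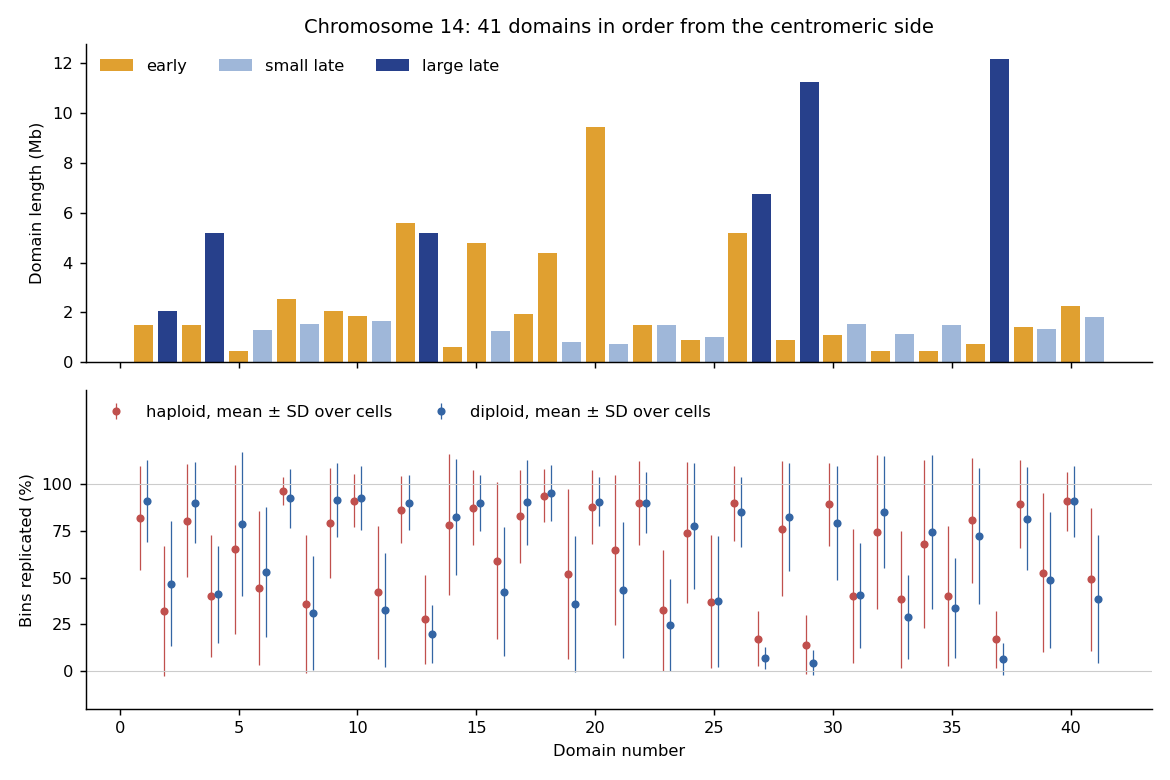
Length in Mb (top) and percentage of bins replicated (bottom, mean ± SD over 75 haploid and 63 diploid cells) for the 41 domains of chromosome 14, numbered from the centromeric side. The 3 longest late domains, numbers 27, 29 and 37, had the lowest percentages of bins replicated in both lines.

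Large late domains were few but long. There were 6 of them, which was rank 18 of 19 by number, and they covered 42.6 Mb and 37.5% of the bins, against 39.1% on the other autosomes. Late domains of at least 6 Mb, of which there were 3, held 26.5% of the bins, rank 5 of 19, whereas they held 17% of the bins of the other autosomes. These 3 domains, on the distal side in the plot of domain lengths, held 570 of the 1137 bins in late domains.

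The longest of the 6 lay at chr14:105750001-117900000 and measured 12.15 Mb. It ranked 3 by length among the 448 late domains of all autosomes. A domain of 11.25 Mb at chr14:87550001-98800000 ranked 8, and a domain of 6.75 Mb at chr14:79850001-86600000 ranked 37. These 3 lay in the distal part of the chromosome and were parted from each other by an early domain of 0.9 Mb in the first case and by several early and small late domains in the second. Their mean scheduled times were 8.76 h, 8.90 h and 8.80 h, which were ranks 9, 5 and 8 by lateness among the 47 autosomal late domains of at least 6 Mb. The other 3 large late domains lay on the proximal side, measured 2.05, 5.2 and 5.2 Mb and were scheduled earlier, at 6.51 h, 6.49 h and 7.61 h.

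Gene content followed the same division. The 3 longest late domains held 15 protein-coding genes, or 0.498 per Mb, against 11.7 per Mb in the early domains, and their GC content was 37% against 43.8%. The 13 small late domains were intermediate, with 3.62 genes per Mb and a GC content of 40.9%. Of their 62 protein-coding genes, 30 lay in a single domain of 1.25 Mb at chr14:49500001-50750000, which holds olfactory receptor genes. In the 6.75 Mb domain only Olfm4, which encodes a secreted olfactomedin glycoprotein, and Pcdh17, a protocadherin adhesion gene, were annotated as protein coding. Olfm4 lay near the margin and was scheduled at 5.59 h, while Pcdh17 lay inside and was scheduled at 8.18 h.

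The 11.25 Mb domain held 5 protein-coding genes. Pcdh9 and Pcdh20, which encode protocadherins, were scheduled at 9.28 h and 9.58 h. Klhl1, a kelch-like gene of neurons, was scheduled at 8.94 h, Dach1, a transcription factor gene of eye and limb development, at 9.20 h, and 4921530L21Rik at 9.20 h. Each of their start bins was replicated in less than 10% of the cells or chromosomes of both lines, with the highest value, 9.33% of haploid cells, at Klhl1.

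In the 12.15 Mb domain, the genes in the interior were late and those at the margins were less so. Slitrk6, one of a family of neuronal transmembrane proteins that shape synapses, was scheduled at 9.98 h and was replicated in 0% of haploid cells and 0% of diploid chromosomes. Its relatives Slitrk1 and Slitrk5 were scheduled at 9.33 h and 9.15 h, and Tpm3-rs7 at 9.04 h. Spry2, an inhibitor of receptor tyrosine kinase signaling, and Trim52 lay near the proximal end and were scheduled at 5.51 h and 6.20 h. The glypican genes Gpc5 and Gpc6, which encode heparan sulfate proteoglycans, span 1433 kb and 1051 kb and started at 8.16 h and 6.88 h.

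The early domains carried genes of other roles. In the 9.45 Mb early domain the longest genes were Atp8a2, Msra, Xkr6, Ebf2, Dock5, Kif13b, Cab39l and Hmbox1, and the 7 with a usable start bin were scheduled between 0.509 h at Xkr6 and 3.91 h at Atp8a2. In the 5.6 Mb early domain Grid1, Cacna1d, Wdfy4, Arhgap22, Ankrd28, Sfmbt1, Frmpd2 and Pbrm1 ranged from 0.764 h at Ankrd28 to 4.85 h at Frmpd2. In the early domain of 5.2 Mb that borders the 6.75 Mb late domain, Enox1, Vwa8, Lrch1, Dgkh, Gtf2f2, Elf1, Lcp1 and Epsti1 ranged from 2.19 h at Lcp1 to 3.44 h at Epsti1. Grid1, which encodes a glutamate receptor subunit, and Cacna1d, which encodes a calcium channel, are long genes with neuronal roles and were scheduled early, at 0.887 h and 3.09 h.

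Lists of genes on the chromosome were counted by class. Of 18 neuronal genes with a usable start bin, 11 lay in large late domains, 2 in small late domains and 5 in early domains, with a median of 7.52 h. Of all 700 protein-coding genes with a usable start bin, 6.43% lay in large late domains, and their median was 2.53 h. The latest neuronal genes were Slitrk6, Nrg3 at 9.66 h and Pcdh20, and the earliest were Grid1, Erc2 at 2.23 h and Kcnma1 at 3.04 h. The neuronal list was drawn up knowing that such genes lie in these domains, so its count describes the domains and does not measure an enrichment.

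Developmental regulators were spread over the schedule. Of 19, 11 lay in early, 5 in small late and 3 in large late domains. The earliest were Bmpr1a, a bone morphogenetic protein receptor, at 0.724 h, Otx2, a head and forebrain factor, at 1.39 h, and Gata4, a cardiac and endodermal factor, at 1.39 h. The latest were Rarb, a retinoic acid receptor, at 6.53 h, Ednrb, an endothelin receptor, at 6.68 h, and Dach1.

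Genes used by all dividing cells were early without exception in the lists examined. All 14 genes of replication, repair, chromatin and cell cycle with a usable start bin lay in early domains, from Wapl, a cohesin release factor, at 0.592 h, Dlgap5 at 1.0 h and Kat6b at 1.46 h to Rb1 at 3.92 h, Apex1 at 4.28 h and Parp2 at 4.58 h. All 12 genes of the proteasome, transport and metabolism list were early as well, from Xpo4 at 1.01 h, Mrpl52 at 1.32 h and Dad1 at 1.60 h to genes such as Esd at 4.07 h and Pnp at 4.28 h. For comparison, 85.6% of all protein-coding genes with a usable start bin were in early domains.

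Both receptor gene clusters of the chromosome differed from the long late domains. Of 40 olfactory receptor genes and pseudogenes with a usable start bin, 27 lay in small late, 10 in early and 3 in large late domains. They were scheduled between 1.60 h at Olfr49 and 7.05 h at Olfr721-ps1. Of all protein-coding genes with a usable start bin, 8% lay in small late, 85.6% in early and 6.43% in large late domains. Of 128 T cell receptor alpha V segments, 115 started in the bins that were left out, and the other 13 were early, between 2.95 h and 3.59 h. The constant segment Trac was scheduled at 1.51 h.

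Promoters were printed for genes at the extremes of the schedule to show how their CG content differed. The 250 bases before the start of Wapl, the earliest gene of the chromatin list, and of Nrg3 and Slitrk6, the latest genes of the neuronal list, are shown 5′ to 3′ on the strand of the gene with CG in capitals. They were taken from RefSeq on GRCm38.p6.
Wapl, plus strand, chr14:34673678-34673927: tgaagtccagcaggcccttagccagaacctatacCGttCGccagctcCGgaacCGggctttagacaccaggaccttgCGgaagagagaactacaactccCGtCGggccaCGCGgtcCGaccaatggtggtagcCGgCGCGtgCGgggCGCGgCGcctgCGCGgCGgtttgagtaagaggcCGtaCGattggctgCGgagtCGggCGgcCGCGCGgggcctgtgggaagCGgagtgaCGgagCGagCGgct
Nrg3, minus strand, chr14:39473089-39473338: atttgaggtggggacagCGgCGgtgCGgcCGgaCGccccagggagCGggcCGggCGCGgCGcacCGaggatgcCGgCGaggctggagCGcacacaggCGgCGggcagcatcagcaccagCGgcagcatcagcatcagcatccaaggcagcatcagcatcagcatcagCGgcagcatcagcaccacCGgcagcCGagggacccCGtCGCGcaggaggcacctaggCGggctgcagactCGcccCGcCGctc
Slitrk6, minus strand, chr14:110755150-110755399: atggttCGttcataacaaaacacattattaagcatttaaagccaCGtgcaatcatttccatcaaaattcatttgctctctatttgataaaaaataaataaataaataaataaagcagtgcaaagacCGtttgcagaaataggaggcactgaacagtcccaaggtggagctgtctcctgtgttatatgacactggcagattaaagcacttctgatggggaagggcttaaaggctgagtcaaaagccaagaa

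The promoter of Wapl held 32 CG and that of Nrg3, scheduled at 9.66 h and encoding a neuregulin ligand of ErbB receptors, held 27. The promoter of Slitrk6 held 3. CG reads the same on both strands, and at least one was present in 92.4% of the 31396 autosomal promoter windows. Over chromosome 14, the median number of CG was 11 in 436 promoters of early domains, 1 in 43 of small late domains and 9 in 41 of large late domains. A single domain with olfactory receptor genes held 30 of the 62 protein-coding genes of the small late domains, and its part in their median was not tested. The few genes of the large late domains thus had promoters whose median CG count was near that of early genes, while the surrounding DNA was the poorest in GC.

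Next, the progress of chromosome 14 in each cell was compared with the progress of the other autosomes in the same cell. Progress is the percentage of usable bins replicated, and a diploid cell counts the mean of its homologs. In haploid cells, 55.7% ± 17.1 of chromosome 14 and 61.4% ± 16.9 of the other autosomes were replicated (SD, n = 75). The difference within a cell was -5.65 ± 2.60 percentage points, from -12.7 at the lowest through a median of -5.43 to 0.654 at the highest. Chromosome 14 was behind in 73 of 75 haploid cells.

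In diploid cells the chromosome was less far behind. It was replicated to 52.8% ± 9.15 against 54.2% ± 9.60 for the other autosomes (SD, n = 63). The difference was -1.35 ± 2.85 percentage points, from -7.36 through a median of -1.40 to 6.82, and was below 0 in 45 of 63 cells. The mean difference was thus smaller than its spread over cells in the diploid line and larger than its spread in the haploid line.

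**Figure D2:**
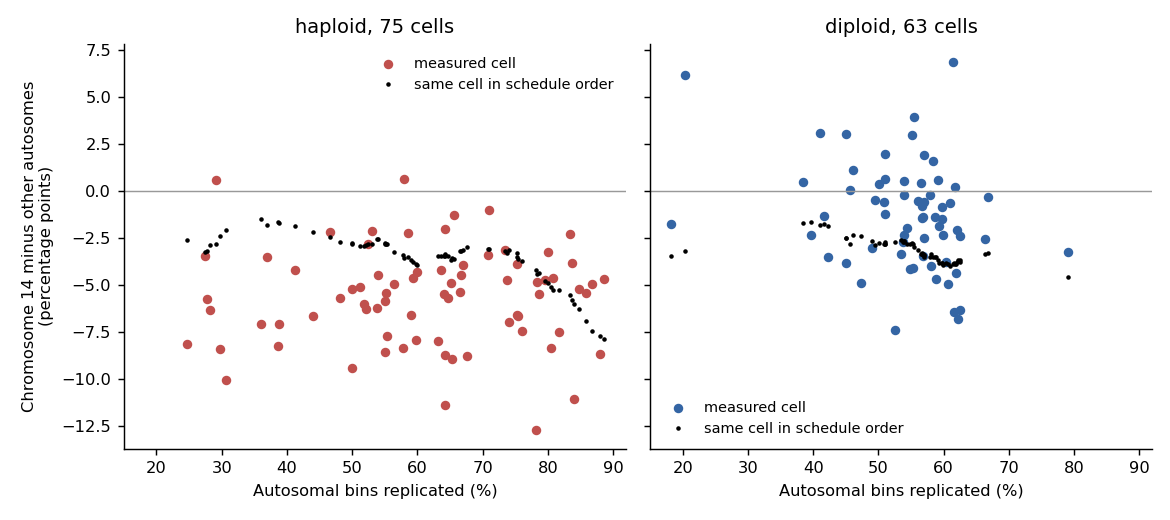
Percentage of chromosome 14 bins replicated minus that of the other autosomes, in percentage points, against the percentage of autosomal bins replicated, for each haploid (left) and diploid (right) cell. Black points give the value the same cell would have had if it had copied its bins strictly in schedule order. Of the haploid cells 73 of 75 lie below 0, and of the diploid cells 45 of 63.

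A lag was built into the schedule, because the chromosome has more late bins than most. If each cell had copied its bins in strict schedule order, the difference would have been -3.59 ± 1.35 points in haploid and -3.14 ± 0.637 in diploid cells. The measured difference was lower than this by 2.06 ± 2.91 points on average in haploid cells, 56 of 75 of which lay below their own schedule order. In diploid cells it was higher by 1.79 ± 2.83 points, and 18 of 63 lay below. Both distances were smaller than their spread over cells. The schedule joins the lines with equal weight, so where they differ, departures of opposite sign tend to be built in.

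The difference between the lines was also present at matched progress. In cells with 40% to 60% of autosomal bins replicated, the difference was -5.29 ± 2.32 in 25 haploid and -1.12 ± 2.40 in 45 diploid cells. In windows of 5 percentage points of progress that held cells of both lines, with 53 haploid and 62 diploid cells, the values were -5.67 and -1.34, which are 4.34 points apart. The SD within windows was 2.64 in haploid and 2.75 in diploid cells. The mean of plate rows with at least 3 cells ranged from -6.89 to -4.67 over 7 haploid rows. Over 8 diploid rows it ranged from -2.90 to -0.476. These ranges of row means did not overlap, whereas the values of single cells of the lines did. Rows are groupings of the same cells, and the haploid rows also differed in mean progress. The rows are therefore not replicates and do not test the difference between the lines.

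Chromosome 14 was not alone in this. On 18 of the 19 autosomes the mean difference was farther from 0 in the haploid than in the diploid line. The value of chromosome 14 ranked 4 from the lowest in haploid cells, where the other autosomes ran from -13.0 on chromosome 3 to 16.3 on chromosome 11. It ranked 7 from the lowest in diploid cells, where the others ran from -6.01 to 9.09. The authors brought chromosomes that were aneuploid in a cell to the mean of control cells before the states were called, and the part of that step in these values was not tested.

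The comparison was repeated without the long late domains. When late domains of at least 6 Mb were left out on all autosomes, 1583 bins of chromosome 14 and 35638 of the others remained. The difference was then 0.745 ± 3.80 points in haploid cells, with 26 of 75 below 0, and 6.72 ± 3.75 points in diploid cells, with 3 of 63 below 0. Counting scores above 0 in place of states gave -1.33 in haploid and 6.19 in diploid cells, so the haploid sign depended on the measure. With the long late domains left out on both sides, chromosome 14 was ahead of the other autosomes in 60 of 63 diploid cells. The step removed 26.5% of its bins, at a mean of 8.82 h, and 17% of the others, at 8.21 h. A rise of the difference was thus built in, and the value in strict schedule order was not computed for the remaining bins.

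Large late domains were then followed through S phase. The 6.75 Mb domain was replicated to 17.4% ± 14.7 in haploid cells, between 0% and 45.6% with a median of 12.8%, and to 7.30% ± 5.87 in diploid cells, between 0% and 19.2% with a median of 7.2%. The 11.25 Mb domain was replicated to 14.3% ± 15.6 in haploid cells, up to 74.4% with a median of 9.13%, and to 4.65% ± 6.60 in diploid cells, up to 34.2% with a median of 2.28%. The 12.15 Mb domain was replicated to 17.1% ± 15.3 in haploid cells, up to 76.5% with a median of 13.7%, and to 6.49% ± 8.40 in diploid cells, up to 52.7% with a median of 3.54%. No cell of either line had replicated at least 90% of any of the 3.

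**Figure D3:**
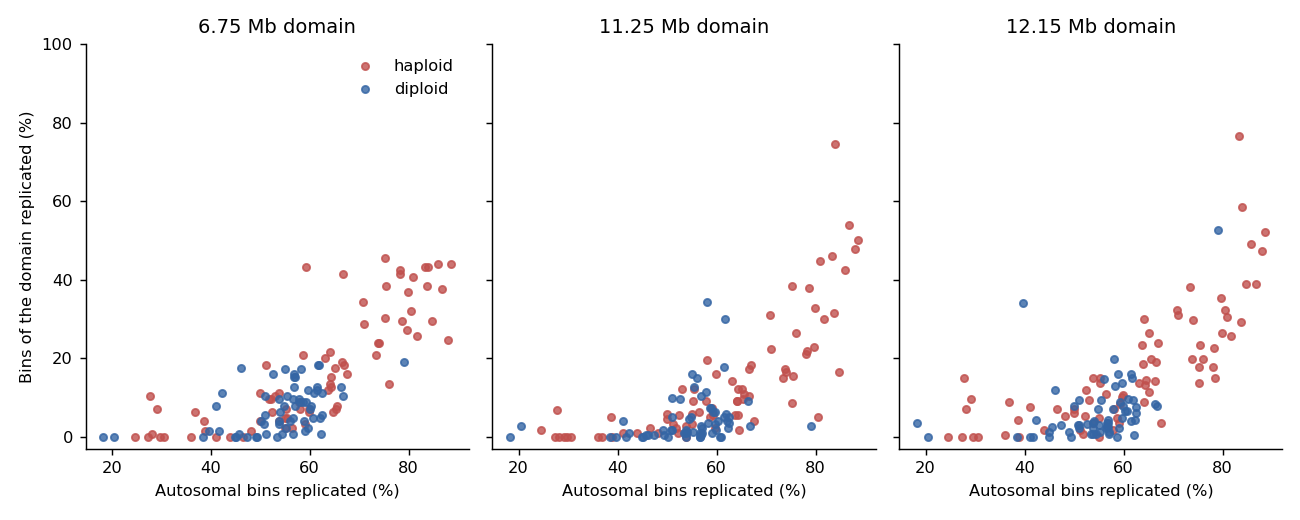
Percentage of the bins of each of the 3 longest late domains replicated, against the percentage of all autosomal bins replicated, for 75 haploid (red) and 63 diploid (blue) cells. Values stay below 20% in most cells under 60% progress and reach 76.5% at most.

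The haploid cells reached farther into S phase, so the stages are given apart. In 19 haploid cells with 50% to 60% of autosomal bins replicated, the 6.75, 11.25 and 12.15 Mb domains were replicated to 9.89% ± 9.41, 6.78% ± 5.23 and 7.31% ± 4.84. In 35 diploid cells of the same stage they were replicated to 7.68% ± 5.17, 5.39% ± 6.76 and 5.48% ± 4.95. These values differed by less than the spread over cells. In 11 haploid cells with 80% to 90% of bins replicated, the domains stood at 36.7% ± 7.41, 40.3% ± 18.9 and 43.6% ± 15.1.

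The proximal large late domains were replicated farther. In the same 11 haploid cells, the 2.05 Mb domain was replicated to 92.2% ± 15.4, the 5.2 Mb domain at chr14:12750001-17950000 to 86.8% ± 11.6, and the 5.2 Mb domain at chr14:35400001-40600000 to 61.6% ± 16.8. In the joint schedule, which these cells helped to set, the first and second of these domains were at 6.51 h and 6.49 h and the last at 7.61 h.

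Large late domains were mostly found empty or partly replicated. Over the 450 combinations of a haploid cell and a large late domain, 37.1% had at most 10% of bins replicated, 59.1% lay between and 3.78% had at least 90%. Over 378 diploid combinations the shares were 48.9%, 48.9% and 2.12%. Small late domains were whole more often, in 28.4% of 975 haploid and 14.2% of 819 diploid combinations. A small domain can be whole after a single stretch of a few bins, so length enters this comparison. Small late domains were also scheduled earlier, at a mean of 6.37 h against 8.28 h, so scheduled time enters it as well.

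The 3 longest late domains did not move as a unit in each cell. All 3 stood under 10% in 21 haploid and 37 diploid cells, all 3 had reached 10% in 28 haploid and 2 diploid cells, and the remaining 26 haploid and 24 diploid cells were mixed. The spread between the highest and the lowest of the 3 within a cell had a median of 8.78 points in haploid and 4.8 points in diploid cells, with highest values of 37.7 and 49.9 points. At least one of the 3 had reached 50% in 4 haploid cells and 1 diploid cell, and in no cell had all 3 done so.

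Bins at the ends of these domains were replicated more often than bins inside. In cells past 40% progress, the outer 5 bins of the 6 large late domains were replicated to 66.5% in haploid cells and the bins more than 10 bins inside to 18.5%. The difference was 48 ± 17.8 points and was above 0 in 64 of 64 cells. In diploid cells the values were 52% and 9.71%, with a difference of 42.3 ± 15.6 points, above 0 in 59 of 59 cells. The ends were placed where the mean profile of these cells crosses 5 h, so a gradient of this direction was built in. Longer domains gave a larger share of the inner bins than of the outer bins, and the longest were scheduled latest. The shape of the gradient therefore mixes distance from the end with differences between domains.

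**Figure D4:**
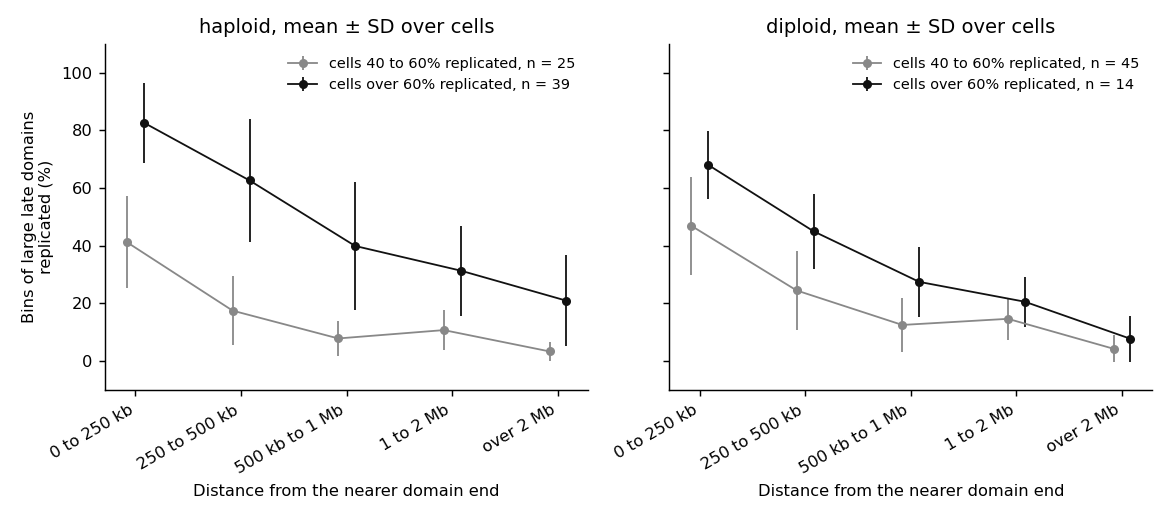
Percentage of bins of the 6 large late domains replicated (mean ± SD over cells) in 5 classes of distance from the nearer domain end, which are not drawn to scale, for cells with 40% to 60% and with over 60% of autosomal bins replicated. In haploid cells over 60%, the mean falls from 82.7% in the outer 250 kb to 20.9% more than 2 Mb inside. Longer domains give more of the inner bins, so the classes differ in their mix of domains.

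Over the pooled bins, the gradient was steepest within the first Mb. In 25 haploid cells of 40% to 60% progress, the percentage fell from 41.2% ± 16 in the outer 250 kb to 7.81% ± 6.10 at 500 kb to 1 Mb and was 10.7% ± 6.86 at 1 to 2 Mb. In 45 diploid cells of that stage it fell from 47% ± 17 to 12.5% ± 9.51 and was 14.6% ± 7.25 at 1 to 2 Mb. Beyond 2 Mb, 3.32% ± 3.42 and 4.23% ± 4.68 were replicated. Between 500 kb and 2 Mb the values thus differed by less than the spread over cells.

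Stretches that touched neither end of a domain were also seen. They made up 33.4% of the replicated length of large late domains in haploid cells and 37% in diploid cells, with a median length of 0.7 Mb in both. Such stretches were present in 69 haploid and 59 diploid cells, and the longest measured 3.75 Mb and 3 Mb. In the 11.25 Mb domain they made up 68.4% of the replicated length in haploid and 52.1% in diploid cells, and in the 5.2 Mb domain at chr14:35400001-40600000 28.8% and 73.1%.

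Some interior bins, more than 10 bins from the ends, were replicated more often than their surroundings. The percentages are over all cells and not matched for progress, whose mean was 61.1% in haploid and 54.1% in diploid cells. They therefore do not measure a difference between the lines. In the 11.25 Mb domain, the earliest interior bin, chr14:91350001-91400000, was scheduled at 6.98 h. It was replicated in 46.7% of haploid cells and 14.3% of diploid chromosomes. In the 12.15 Mb domain it was chr14:117050001-117100000, inside Gpc6, at 6.60 h, with 57.3% and 10.3%. In the proximal domain of 5.2 Mb with Ccser2 and Nrg3, it was chr14:36900001-36950000, inside Ccser2 at 4.95 h, with 60% and 75.4%, while the latest bin, inside Nrg3 at 9.79 h, had 4% and 1.59%. These bins of Ccser2 and Nrg3 lay at opposite ends of the range of scheduled times within the domain.

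Variation between cells around the schedule was summarized by T_width. This is the time, in scheduled hours, over which bins went from 25% to 75% replicated across cells, read from a sigmoid fitted to the percentage replicated against the time from scheduled replication, with each cell left out of its own schedule. T_width of chromosome 14 was 2.16 h over 138 cells, against 2.02 h for the other autosomes together. It was the highest of the 19 autosomes, but the next highest was also 2.16 h when rounded and the lowest was 1.84 h. The haploid value was 2.16 h and ranked 6, and the diploid value was 2.11 h and ranked 1, with the others between 1.63 h and 2.09 h.

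Late bins of the chromosome had a wider spread than late bins elsewhere. T_width of late bins was 2.06 h on chromosome 14 and 1.85 h on the other autosomes, and that of early bins was 2.46 h and 2.64 h. The order of the chromosome against the rest was therefore turned between early and late bins.

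Pairs of cells of the same line within 1 percentage point of progress were compared bin by bin. For chromosome 14 bins within 1 h of their scheduled time, 43.4% ± 5.27 differed between the cells of 94 haploid pairs, against 3.57% ± 4.50 of bins more than 3 h away (SD over 69 cells). In 159 diploid pairs the values were 42% ± 5.04 and 3.61% ± 3.07 (SD over 57 cells). Over all bins of the chromosome, 17.3% differed in haploid pairs, which was 1.07 ± 3.27 points more than on the other autosomes, and 16.5% in diploid pairs, a difference of -0.569 ± 3.06 points from the other autosomes. Both distances lay within the spread over pairs, and chromosome 14 differed more than the other autosomes in 56 of 94 haploid and 66 of 159 diploid pairs.

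Homologs of chromosome 14 differed in few bins of diploid cells. The share of asynchronous bins was 0.987% ± 2.13 (SD, n = 63), its median was 0% and its maximum 13.4%, against 0.864% ± 1.58 on the other autosomes. The difference of 0.123 ± 1.44 points was within the spread over cells. Asynchronous bins were present on the chromosome in 26 of 63 cells, and the 3 cells with the most of them held 39.1% of all such bins.

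The 129 homolog was ahead more often than the Castaneus homolog. Bins with the 129 homolog alone replicated made up 0.693% ± 1.47, and bins with the Castaneus homolog alone 0.294% ± 0.761. On the other autosomes the shares were 0.527% and 0.337%, in the same direction. On chromosome 14 the 129 share was the higher in 21 cells, and in 4 cells the Castaneus share was. The study's threshold for calling the 129 side lay slightly nearer to 0 than that for the Castaneus side, and its part in this count was not tested.

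Asynchronous bins formed 73 stretches with a median of 0.7 Mb and a longest of 3.35 Mb. Of these, 41 lay in early, 12 in small late and 20 in large late domains. Large late domains had asynchronous states in 0.958% of bins and early domains in 1.02%, so the long late domains did not stand out. The longest stretch, chr14:102650001-106000000, had the Castaneus homolog ahead, and the next, of 3.1 Mb at chr14:88050001-91150000 inside the 11.25 Mb domain, had the 129 homolog ahead. No bin was asynchronous in more than 4 cells.

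Last, single bins and domains were compared between the lines at matched progress. A limit of 0.5 in the mean smoothed score, a relative scale with no unit, was passed by 34 of 2153 bins, or 1.58%, against 1.35% of all autosomal bins. Higher scores in haploid cells were found for 12 bins, or 0.557% against 0.43%, and higher scores in diploid cells for 22 bins, or 1.02% against 0.92%. The shares of the chromosome were near those of the autosomes as a whole. The mean score of the chromosome was lower in haploid cells by a mean difference of -0.07 (SD over bins 0.18), and over all autosomes the mean difference was 0.02.

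Most of these bins lay in 5 stretches. The longest, 0.6 Mb at chr14:9200001-9800000, lay at the margin of the 2.05 Mb late domain. It overlapped Fhit, a tumor suppressor gene at a common fragile site. At matched progress, 25.3% of the bins of this stretch were replicated in haploid and 69.9% in diploid cells, with a score difference of -0.59. Another at chr14:11750001-12000000 overlapped Ptprg, a receptor tyrosine phosphatase gene, and the stretch at chr14:48050001-48200000 overlapped Peli2. Their score differences were -0.53 and -0.51. Both were replicated in most cells of each line, with 86.7% and 95.7% at Ptprg and 89.5% and 95.2% at Peli2.

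The opposite direction was found in the early domain next to the 6.75 Mb late domain. At chr14:77350001-77700000 within Enox1, 93.4% of bins were replicated in haploid and 64.2% in diploid cells, with a score difference of 0.54. At chr14:77800001-78000000, which holds the starts or bodies of Epsti1 and Dnajc15, the values were 92.4% and 67.5%, with a score difference of 0.53.

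**Figure D5:**
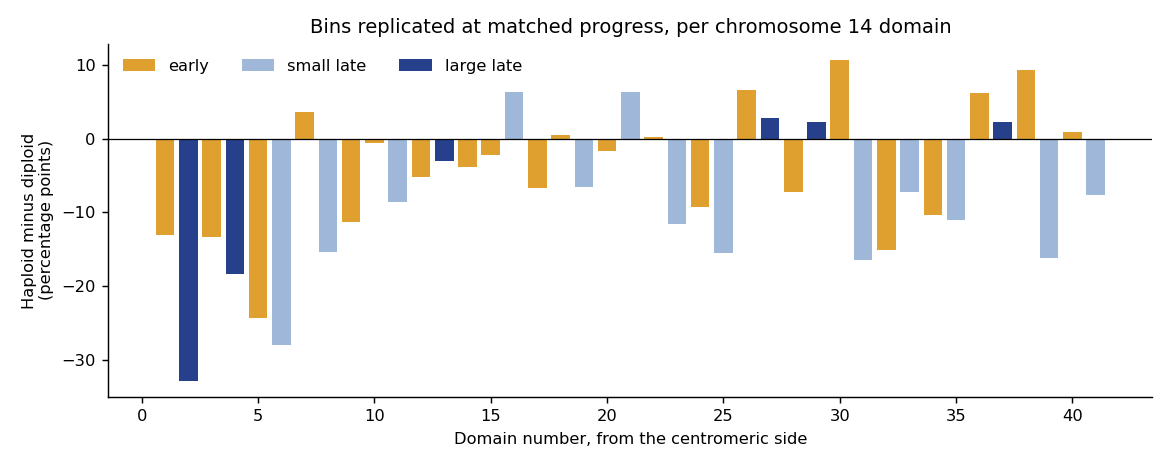
Percentage of bins replicated in haploid minus diploid cells at matched progress, in percentage points, for the 41 domains of chromosome 14 in order from the centromeric side. Bars of the first domains are below 0, down to -32.8 points at domain 2, and those of the 3 longest late domains, 27, 29 and 37, are between 2.20 and 2.76.

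The sign of the line difference changed along the chromosome. The first domains were behind in haploid cells, by 23.5 points over the usable bins of the first 10 Mb and by 19.4 points between 10 and 20 Mb. The 2.05 Mb domain with Fhit was replicated to 15.4% in haploid and 48.2% in diploid cells at matched progress, with SDs within windows of 19.6 and 28.7. The 5.2 Mb domain with Cadps, Rarb and Thrb was replicated to 22.2% and 40.5%, with SDs of 15.8 and 23.6. From 20 Mb onward the mean of a 10 Mb interval never differed by more than 5.60 points, but such a mean joins early and late domains. Single domains there ran from -16.4 points in the small late domain at chr14:99900001-101450000 to 10.7 points at chr14:98800001-99900000, the early domain beside it. The SDs within windows of these domains were 24.7 and 10.8 in haploid and 21.1 and 17.1 in diploid cells.

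The longest late domains were slightly ahead in haploid cells. The 3 together were replicated to 8.53% in haploid and 6.21% in diploid cells at matched progress, a difference of 2.32 points. Single domains differed by 2.76, 2.20 and 2.20 points, against SDs within windows from 5.27 to 8.79, so no single domain differed beyond the spread over cells. The small late domains were behind by 10.8 points, with 27.8% and 38.6%. Over the whole chromosome 49.7% of bins were replicated in haploid and 53.2% in diploid cells at matched progress, a difference opposite in sign to that of its 3 longest late domains.

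Within the longest late domains, Gpc6 departed from its neighbors. At matched progress its start bin had been copied in 46.6% of haploid cells and 9.22% of diploid chromosomes, with a score difference of 0.44, which was under the limit. At Gpc5 in the same domain the values were 7.94% and 14.4%, and at Slitrk5 2.63% and 5.62%. Gpc6 was not alone, since genes near the proximal end also had higher haploid values over all cells, not matched for progress. These were 61.3% and 16.7% at Trim52 and 74.7% and 42.1% at Spry2, against 53.3% and 8.73% at Gpc6. Gpc6 was named for its place among the longest genes of the domain, and the remark on its line difference was made after its value was seen.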

How the data were processed

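Single S-phase nuclei of H129-2 and F121-9 mESCs were sorted by DNA content, amplified and sequenced. The submitters' processing notes name Bowtie2, SAMtools, bedtools and mm10. Per the study's methods, reads in 50 kb windows were scaled to the total of the cell, divided by G1 and G2 controls, masked, centered, scaled and median smoothed. The smoothed values deposited by the authors are therefore a score without a unit, relative within a cell. The binarized states deposited by the authors (0 unreplicated, 1 replicated) came from segmentation and a threshold per cell, and in diploid cells homologs received different states only where parsed reads allowed. The tables hold no read numbers, and the depth of a cell is unknown.

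The labels name 188 cells. Values were matched by well to 75 haploid and 63 diploid S-phase cells, and 24 columns that matched no labelled cell were not used. Progress, schedule, domains and T_width were computed in Python 3.11.15 with numpy 2.4.6, pandas 2.3.3, scipy 1.17.1 and matplotlib 3.10.9, and the procedures were tested on simulated data. A run ended at a gap of more than 5 unused bins, and shorter runs than 5 bins were joined to their surroundings. Score profiles of the lines were weighted equally. Gene positions came from GENCODE on GRCm38, a gene taking the value of the bin at its start. Named genes were the up to 8 longest protein-coding genes of the 3 longest late and early domains, and the earliest and latest 3 of each list. One gene and one sequence that these rules select are not reported here. The chromosome, the lists and the limits were chosen with earlier results of these data known. No test was run, as each line is 1 sample.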

Additional observations from a re-analysis of the deposited data

How the results depend on the processing

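Across 25 values, 80 alternative settings gave 66 values counted as the same, 13 as moved and 1 of opposite sign. The same meant within the spread over cells or bins, within 1.5 times or within the binomial interval of the reported value. Where an alternative had another unit, only its sign was compared and its size was not checked. The late share of 52.7% was 55.8% with the haploid schedule, 50.1% with the diploid schedule and 48% on a linear schedule. The share in large late domains of 37.5% was 43.6% with a shortest run of 10 bins, 42.8% with the haploid schedule and 32.5% with the diploid schedule, and the longest late domain stayed between 11.9 and 12.2 Mb. T_width of chromosome 14 minus that of the other autosomes was 0.146 h and was 0.0912 h with a schedule from states. Partly replicated combinations were 59.1% in haploid and 48.9% in diploid cells, 72.7% and 62.2% with limits of 5% and 95%, and 50.4% and 57.5% with domains of at least 1 Mb. The order of the lines in that share was thus turned by the shorter domains. Bins past the score limit numbered 61 in place of 34 in cells of 40% to 60%. Without late domains of at least 6 Mb, the haploid difference of 0.745 points was -1.33 with scores above 0, an alternative chosen after seeing the data. The cause of these changes was not tested. Centering each chromosome sets the mean score difference of the chromosome to about 0 by construction and was not run for it. No paired analysis was possible because the cell numbers follow the order of the samples within a line and tie no haploid cell to a diploid cell.

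Unknown depth per cell limits all states, most of all the homolog states, which are equal by default. Few diploid cells lay outside mid-S phase, and no haploid cell was past 88.6% replicated, so the completion of the longest late domains was not observed. Bins within a domain were segmented together and are not independent, and per-cell values of a domain often rest on a few segments.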
